A study of Mus musculus with 58 samples.

Results

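The set described here holds 484 short inserts whose RNA stood higher on chromatin than in total (steady-state) RNA in both screens that read both kinds of RNA. They are 3.87% of the 12520 inserts that could be chosen and 2.94% of the 16461 inserts of the library. An insert could be chosen if it had no spliced reference and at least 50 genomic DNA (gDNA) reads in each of screens 2 and 3 at Pou5f1. The level of an insert in a library is the log2 of its share of RNA reads over its share of the matching gDNA reads, with 2 reads added to each count, less the median over these 12520 inserts. A level of 0 is thus that of the typical insert of that library, and every level below is relative to it. A member had a chromatin RNA level at least 1 above its total RNA level in screen 2 and in screen 3, and a mean chromatin RNA level of at least 0. Members were thus chosen by their chromatin RNA, total RNA and gDNA counts in screens 2 and 3, so values from these libraries are given as a description and enter no test.

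INSERT-seq integrates a library of inserts behind 1 promoter and reads how much RNA each insert yields per integrated copy. The 175 nt inserts were read in mouse embryonic stem cells of the hybrid line F121-9, at the upstream antisense transcript of Pou5f1 or in the long non-coding RNA gene 4930461G14Rik (14Rik). Reverse transcription started in the RNA 221 nt downstream of the insert at Pou5f1 and 287 nt downstream at 14Rik, so only transcripts that ran through the insert to the primer were counted. RefSeq's GRCm38.p6 annotation places Pou5f1 on chromosome 17 (35506032 to 35510777) and 14Rik on chromosome 9 (58455173 to 58469623). The design asks how insert sequence affects RNA made at a non-coding start site.

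For the Pou5f1 screens the insert sat 157 nt into the antisense transcript on the 129 allele, in front of a reporter for mKate2, a red fluorescent protein, in cells that also carried TagBFP2 at the C terminus of Oct4. These cells gave total RNA in 4 untreated screens, chromatin-associated RNA in screens 2 and 3, and nascent RNA, labelled during a run-on of 15 minutes, in screen 4 and in a further screen that is here called 5. Screen 4 used 1 gDNA library for both its total and its run-on RNA. The same cells gave total RNA of 3 cultures treated for 48 h with 40 nM non-targeting control siRNA (siNT) and of 3 treated alike with a pool of siRNAs against EXOSC3 (siRRP40). The 14Rik screens, 3 in number, used untreated wild-type F121-9 cells, with the insert 102 nt into the transcript on the CAST allele. In 2 further untreated screens the Pou5f1 reporter cells were sorted into 6 bins and gDNA was read in each bin. The labels do not say which fluorescence set the bins or in which direction they run. Nor do they say whether replicates were separate integrations of the library, so p-values measure the spread between these samples only. Insert counts hold no endogenous genes, so neither the cell type nor the depletion of EXOSC3 could be checked in them.

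Pou5f1 encodes the pluripotency factor Oct4, and like most active mammalian promoters its promoter also fires in the antisense direction. Such upstream antisense RNAs usually end early and are short-lived: the nuclear RNA exosome, of which RRP40 (EXOSC3) is a core subunit, degrades many of them. Chromatin-associated RNA holds transcripts still attached to polymerase or retained near the template, run-on RNA holds those being extended, and total RNA reflects both synthesis and decay.

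Libraries held 507182 to 94099800 reads on inserts, and the 6 libraries of the rule held 13481092 to 24292270. Screen 1 was shallow, with 2665226 total RNA reads and 1991728 gDNA reads. Reads come from PCR amplicons without molecular identifiers, so read numbers overstate the number of molecules. The files used here name inserts by number, and the sequences and source genes behind the numbers were not used here. No sequence is therefore shown, and at most 2 inserts per direction are named for a comparison.

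In the libraries of the rule, the median member stood at 0.96 in chromatin RNA of screen 2 and 0.68 in that of screen 3, against -0.91 and -1.58 in total RNA of the same screens. The chromatin minus total difference had a median of 1.84 in screen 2 and 2.26 in screen 3. Taking the smaller of both differences for each member, the median was 1.54, the middle 50% lay between 1.21 and 2.14, and the highest was 8.31. It was at least 2 in 141 members and at least 3 in 50. The 10 members just inside the threshold lay at 1.00 to 1.01, and the 10 inserts just outside it at 0.99 to 1.00. Part of the set rests on absent reads: 44 members had 0 total RNA reads in screen 2, 101 had 0 in screen 3, and 25 had 0 in both.

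The difference that defines the set varied widely between screens. A chromatin excess of at least 1 in both screens was met by 867 eligible inserts (6.92%), of which 383 had a chromatin RNA level below 0 and were left out. A deficit of at least 1 in both screens was met by 883 (7.05%), and 766 inserts had an excess of at least 1 in 1 screen and a deficit of at least 1 in the other. Over all 12520 eligible inserts the difference correlated between screens with a Pearson r of 0.13 and a Spearman rho of 0.27, a description over inserts that share libraries and depth. Each screen on its own would have given 1318 members (screen 2) or 1273 (screen 3). The results below come from the libraries the rule did not use.

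Members also had fewer gDNA reads than other eligible inserts. Their median was 360 reads in screen 2 and 416 in screen 3, against 812 and 667 for the 12036 eligible inserts that were not members. By mean gDNA reads of both screens, members were 9.77% of inserts with 50 to 200 reads, 6.50% from 200 to 400, 4.41% from 400 to 800, 1.89% from 800 to 1600 and 0.854% from 1600. Depth moved with RNA level as well, since non-members with 50 to 200 reads had a median level of -1.54 in siNT cultures and those with 1600 or more had 1.03. Comparisons within these bands were chosen after the values were seen. They are given below for all but the difference between sites.

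The 2 members with the largest difference among those with at least 200 gDNA reads in each screen were sequence_13090 and sequence_11179. For sequence_13090, total RNA held 0 reads in screens 2 and 3, where gDNA held 488 and 484 reads and chromatin RNA held 366 and 572. Its total RNA was not absent from the other screens: it held 884 reads against 928 gDNA reads in screen 4 (level -0.65) and 14 against 56 in screen 1 (level -1.65). In the tests of those screens it passed the threshold neither in total RNA (log2 fold change -1.07, SE 0.82, adjusted p = 0.34 by edgeR) nor in run-on RNA (-0.37, SE 0.90, adjusted p = 0.854). At 14Rik its levels were 0.74, 2.16 and -0.20. In siNT cultures they were -3.68, -1.59 and -0.33, on 46, 222 and 92 gDNA reads. Its total RNA thus ranged from far below to above the typical insert.

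By contrast, sequence_11179 was low in total RNA of Pou5f1 cells throughout. It had 0 total RNA reads in screens 2 and 3 against 332 and 224 gDNA reads, and levels of -3.04 in screen 1, -3.10 in screen 4 and -4.11, -1.40 and -4.06 in the 3 siNT cultures. Its run-on levels were -0.22 and 0.48 and its chromatin RNA levels 0.51 and 0.04, so nascent and chromatin RNA stood near the typical insert while every total RNA library at Pou5f1 stood below it. Total RNA against gDNA fell by 3.33 on the log2 scale in screens 1 and 4 (SE 0.83, adjusted p = 0.00664 by edgeR), and total RNA fell by 3.33 against run-on RNA (SE 0.94, adjusted p = 0.0394). In siNT cultures the fall was -3.56 (SE 0.53, adjusted p = 1.33e-05). At 14Rik its levels were -0.38, -4.82 and 0.12, and the test gave -1.61 (SE 1.50, adjusted p = 0.404).

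Members were low in total RNA of the Pou5f1 screens that had not chosen them. Their median level was -1.33 in screen 1 and -0.97 in screen 4, and -0.20 and 0.06 for the non-members; 87.7% and 80.3% of measured members lay below 0, against 55.1% and 48.7% of non-members. Of 287 members tested in screens 1 and 4, 62 were lower than the typical insert and 3 higher by edgeR's quasi-likelihood test, with all inserts adjusted together by Benjamini-Hochberg and called at 0.05. Over all 10942 inserts tested, 10.8% were lower and 17.1% higher, so members were called lower at 21.6% and higher at 1.05%. The median log2 fold change was -1.41 over the tested members and -0.11 over all inserts, and 262 of the 287 members were below 0. Scaling by library totals moved the median of all inserts to -0.82 and that of members to -2.11, and turned the calls to 1 higher and 128 lower among members and 908 and 2559 among all inserts (1870 and 1178 with TMM). Without screen 1, which leaves 1 total RNA library, the medians were -1.41 over members and -0.28 over all inserts. Fewer members, and fewer of all inserts, were called lower in that fit. Without screen 5 the count of lower members was 106 of 288 (36.8%, against 18.2% of all inserts). Without the screen as a block it was 41 of 287 (14.3%, against 6.75%).

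Among the members lower in total RNA, sequence_09205 and sequence_15096 had the largest changes. For sequence_09205, total RNA held 4 reads against 168 gDNA reads in screen 1 and 282 against 1356 in screen 4, levels of -4.62 and -2.84. Both stood below the typical insert, and the log2 fold change was -4.93 (SE 1.19, adjusted p = 0.0055 by edgeR). Its run-on levels disagreed, at -0.72 and -5.25. For sequence_15096, total RNA held 0 reads against 132 in screen 1 and 70 against 706 in screen 4, levels of -5.86 and -3.88. Its fitted change was -4.78 (SE 1.50, adjusted p = 0.0236), and its run-on levels again lay apart, at -2.67 and 1.24. Both calls were lost without screen 1 (adjusted p = 0.115 and 0.275).

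Only 3 members were higher in total RNA of screens 1 and 4, and sequence_05581 and sequence_04515 had the largest rises. With 878 reads against 128 gDNA reads in screen 1 and 34096 against 1832 in screen 4, sequence_05581 had levels of 2.97 and 3.63. It stood above the typical insert in every total RNA library read, the 2 of the rule included (2.68 and 1.10), and its log2 fold change was 2.96 (SE 0.43, adjusted p = 8.76e-05 by edgeR). It is a member because its chromatin RNA levels of 3.73 and 2.17 were higher still. The levels of sequence_04515 were 2.35 and 0.89 in screens 1 and 4 (log2 fold change 1.43, SE 0.51, adjusted p = 0.043), and the call was lost without screen 1, with library totals, with no read filter and without the screen as a block.

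Run-on RNA of the members was close to that of other inserts. The median member stood at -0.29 in run-on RNA of screen 4 and 0.05 in that of screen 5, against 0.01 and 0.00 for non-members. Both run-on levels were below 0 in 141 of 461 members measured in both libraries (30.6%) and in 31.2% of non-members. Of 287 members tested, 3 were higher and 5 lower than the typical insert (adjusted p under 0.05 by edgeR), 1.05% and 1.74%, where over all inserts 1.97% were higher and 1.29% lower. The median log2 fold change was -0.30 over members and -0.05 over all inserts. Scaling by library totals gave 1 member higher and 5 lower, with 111 and 125 over all 10942 inserts, and moved the median of all inserts to -0.24. Without screen 5, which leaves 1 run-on library whose spread is taken from the other libraries, 5 were higher and 23 lower, or 1.74% and 7.99% of 288 members, against 3.74% and 7.19% of all inserts.

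The highest run-on member was sequence_08500. It held 4814 run-on reads against 346 gDNA reads in screen 4 and 3492 against 528 in screen 5, levels of 3.46 and 1.88. The rise was 2.71 on the log2 scale (SE 0.66, adjusted p = 0.0308 by edgeR) and was lost without screen 1 (adjusted p = 0.052), with library totals (0.065) and in the fit with no block (0.094). Its chromatin RNA was far above that, at 7.0 and 6.47, while total RNA in screens 1 and 4 stood at 1.04 and 0.90 and did not pass the threshold (0.58, SE 0.69, adjusted p = 0.547). At 14Rik the same insert was below the typical one in all 3 screens, at -1.33, -1.59 and -0.35 (-1.26, SE 0.41, adjusted p = 0.0389). The other named rise, sequence_00772, had run-on levels of 2.60 and 1.47 (1.84, SE 0.40, adjusted p = 0.0178, and 0.119 with no block), total RNA levels of -0.09 and 1.07 in screens 1 and 4, and 14Rik levels of 2.42, 3.16 and 4.3.

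In the other direction, sequence_06941 held 40 run-on reads against 812 gDNA reads in screen 4 and 36 against 1104 in screen 5. These are levels of -4.61 and -5.70, both far below the typical insert, and the log2 fold change was -5.21 (SE 1.15, adjusted p = 0.0195 by edgeR). Total RNA of the same insert was low as well, at -3.12 and -3.50 in screens 1 and 4 (adjusted p = 0.0173), whereas its chromatin RNA levels were -0.04 and 0.27. Run-on levels of sequence_02097 were -3.30 and -5.71 (fall of -5.11, SE 1.29, adjusted p = 0.0359), a call lost without screen 1 (adjusted p = 0.128) and with no block (0.0663). Chromatin RNA and run-on RNA thus stood apart for both inserts, in different screens.

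The direct contrast of total with run-on RNA separated members from other inserts more than run-on RNA did. In screen 4, where both kinds share 1 gDNA library that cancels from the difference, the median member had a total minus run-on difference of -0.89 (466 members), and the median non-member one of 0.23. The difference was at most -1 in 209 members (44.8%), against 19.6% of all eligible inserts, and at least 1 in 77 members (16.5%), against 27.7%. In the test over screens 1, 4 and 5, total RNA was lower than run-on RNA in 21 of 287 members and higher in 2 (adjusted p under 0.05 by edgeR). Over all inserts 1.53% were lower and 5.35% higher, against 7.32% and 0.697% of members. The median log2 fold change was -1.12 over members and 0.07 over all inserts, and library totals moved these to -1.63 and -0.45. The count of lower members was 8 of 461 without screen 1 (1.74%, against 0.442% of all inserts), 32 of 288 without screen 5 (11.1%, against 3.63%), 4 of 287 without the screen as a block (1.39%, against 0.366%) and 57 by DESeq2 (19.9%, against 5.23%). This contrast shares its libraries with the comparisons of total RNA and of run-on RNA against gDNA, so the 3 are not independent.

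A run-on level of at least 0 in both libraries together with a total RNA level below 0 in screens 1 and 4 was found for 49 of 287 members (17.1%) measured in all 4 libraries. Over all eligible inserts measured so, 5.2% had this pattern, and among non-members 4.81% did. The reverse pattern was held by 0 of the 287 members and by 3.68% of non-members. This count was added after the values had been seen.

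The largest falls of total RNA against run-on RNA were those of sequence_08266 and sequence_10957. For sequence_08266, run-on RNA held 3184 reads against 544 gDNA reads in screen 4 and 1470 against 278 in screen 5, levels of 2.21 and 1.56. Total RNA of screen 4 held 214 reads against the same 544 (level -1.92), and that of screen 1 held 4 against 90 (-3.73). Total RNA was lower by -4.69 (SE 1.08, adjusted p = 0.0141 by edgeR). The insert was not low in siRNA-treated cultures, where its siNT levels were -0.56, -0.18 and 3.32 on 94, 82 and 10 gDNA reads. For sequence_10957 the run-on levels were 1.95 and 1.92 and the total RNA levels -2.40 and -2.16 (-4.34, SE 0.90, adjusted p = 0.00744). Groups did not overlap in either insert, and neither call held in the fit with no block (adjusted p = 0.0569 and 0.059), nor that of sequence_08266 without screen 1 (0.11).

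Total RNA exceeded run-on RNA in sequence_03999 and in sequence_05581, described above. The former held 74 run-on reads against 1404 gDNA reads in screen 4 and 140 against 1842 in screen 5, both at a level of -4.54. Its total RNA levels of -0.10 and -1.48 were also below the typical insert but above both run-on values (3.48, SE 0.98, adjusted p = 0.0389 by edgeR), a call lost without screen 1 (0.296), with library totals (0.079) and with no read filter (0.0867). At 14Rik it was high in all 3 screens, at 2.44, 1.86 and 2.60 (2.14, SE 0.33, adjusted p = 0.00232). In sequence_05581 total RNA exceeded run-on RNA by 2.41 (SE 0.48, adjusted p = 0.00619, and 0.0574 with no block), its run-on levels being 1.34 and -0.03.

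In the siNT cultures, read in separate libraries, members were again low in total RNA. The medians over members were -1.37, -1.29 and -1.28, a mean of -1.31 ± 0.05 (SD, n = 3), against 0.17 ± 0.01 for non-members. Of 246 members tested, 155 were lower than the typical insert and 11 higher (adjusted p under 0.05 by edgeR), or 63.0% and 4.47%. Over all 9812 inserts tested, 32% were lower and 35.4% higher. The median log2 fold change was -1.61 over members and 0.04 over all inserts, and -2.48 and -0.84 with library totals. Leaving out any 1 culture left 145 to 155 members lower (55.3% to 61.8%, against 28.1% to 31.6% of all inserts). Of 50 members lower in screens 1 and 4 and tested in both fits, 47 (94.0%) were also lower in siNT cultures, and these were 42.3% of the 111 lower there. Of the 175 members tested in both, 63.4% were lower in siNT cultures and 28.6% in screens 1 and 4. Over all 8030 inserts tested in both, the shared calls were 91.5% of those lower in screens 1 and 4 and 36.6% of those lower in siNT cultures.

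In siNT cultures members were also lower than non-members within bands of gDNA reads. From 400 to 800 reads, 54 of 90 tested members (60.0%) were lower in siNT cultures, against 40.1% of 2136 non-members, with median changes of -1.53 and -0.55. From 800 to 1600 reads these were 63.3% of 60 and 29.6% of 3065, with -1.45 and 0.08. From 1600 reads they were 62.5% of 16 and 18.6% of 1882, with -1.12 and 0.74. The contrast was smaller below 400 reads. From 200 to 400 reads 63.6% of 55 members and 54.5% of 776 non-members were lower, with -1.81 and -1.32, and from 50 to 200 reads 72.0% of 25 and 56.9% of 225, with -2.36 and -1.68. In run-on RNA the medians of members and non-members were -0.37 and -0.30 from 400 to 800 reads, -0.16 and -0.03 from 800 to 1600, 0.20 and 0.26 from 1600 and -0.82 and -0.78 from 50 to 200. From 200 to 400 reads the members lay above non-members in run-on RNA, at -0.17 and -0.66. In total RNA of screens 1 and 4, from 50 to 200 reads, 10.0% of 30 members and 15.7% of 332 non-members were lower. The median changes there were -2.05 and -1.28. In the bands above, these shares were 25.9% and 15.7%, 18.6% and 13.3%, 23.4% and 10.4%, and 41.2% and 8.63%. The members lower there were 15 of 58, 22 of 118, 15 of 64 and 7 of 17. Total RNA was lower than run-on RNA, from the lowest band up, in 6.67% and 0.602%, 6.90% and 1.57%, 2.54% and 1.35%, 10.9% and 1.50%, and 29.4% and 2.09%. These shares of members rest on few inserts: 2 of 30, 4 of 58, 3 of 118, 7 of 64 and 5 of 17.

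Both largest falls in siNT cultures were of inserts low in screens 1 and 4 as well. RNA reads of sequence_15096 were 32, 300 and 10 against 424, 354 and 206 gDNA reads, levels of -6.44, -2.80 and -6.05 (-5.54, SE 0.81, adjusted p = 1.07e-05 by edgeR). Those of sequence_13044 were 44, 104 and 16 against 188, 274 and 534, levels of -4.84, -3.94 and -6.84 (-5.52, SE 0.60, adjusted p = 3.67e-07). All 3 cultures stood far below the typical insert in each case. In run-on RNA, sequence_13044 had levels of -1.47 and -1.0, and in total RNA of screens 1 and 4 it had -3.57 and -2.90.

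Among the 11 higher members, sequence_05581 had levels of 3.88, 3.83 and 4.52 (3.75, SE 0.37, adjusted p = 1.23e-07 by edgeR). The other named rise was sequence_14730, with 15326, 15480 and 5804 RNA reads against 198, 422 and 168 gDNA reads and levels of 3.46, 2.63 and 3.15 (2.76, SE 0.22, adjusted p = 7.57e-09). It was less high in untreated cells, at -0.44 in screen 1 and 1.52 in screen 4, and did not pass the threshold there (0.27, SE 0.52, adjusted p = 0.72). For both, chromatin RNA of screens 2 and 3 stood above an already high total RNA.

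Across the 8 total RNA libraries of Pou5f1 cells that the rule did not use, 175 members had at least 50 gDNA reads in each. Of these, 93 (53.1%) were below the typical insert in every library, against 23.5% of 6772 non-members, and 7 (4.00%) were above it in every library, against 35.1%. The set was thus mixed: more than 1 in 2 of these members were low throughout, and a small number were high in total RNA in all 8 libraries. Over members, the mean level in screens 1 and 4 and the mean level in siNT cultures correlated with a Pearson r of 0.76 (188 members), whereas run-on and siNT levels correlated at 0.37 (264 members) and chromatin and siNT levels at 0.35 (265 members). These correlations describe inserts that share gDNA depth and are given without a test.

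Members stayed low in total RNA after siRNA against the exosome subunit. Their median level was -1.18, -1.09 and -1.25 in the siRRP40 cultures, a mean of -1.18 ± 0.08 (SD, n = 3), beside -1.31 ± 0.05 in siNT cultures. Between treatments, 0 of 246 members were higher and 0 lower (adjusted p under 0.05 by edgeR), as were 0% of all 9812 inserts in either direction. At an unadjusted p under 0.05, 17 of the 246 members were higher and 7 lower. No count over all inserts stands beside them, so whether this is particular to members was not tested. DESeq2 called 3 members higher and 0 lower, and 32 and 26 over all inserts. The median log2 change was 0.17 over members and 0.00 over all inserts, with 151 members above 0 and 95 below, and the middle 50% of members lay between -0.29 and 0.70. With library totals the medians were 0.32 and 0.14, so members were 0.18 above the median of all inserts under both scalings. Most of the deficit of members remained in siRRP40 cultures, where 77.7% to 79.1% of measured members lay below 0, against 77.4% to 79.8% in siNT cultures.

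The change with siRRP40 differed by depth. Its median over members was 0.40 from 50 to 200 gDNA reads (25 members), 0.24 from 200 to 400 (55), 0.14 from 400 to 800 (90), 0.18 from 800 to 1600 (60) and -0.00 from 1600 (16). Non-members of the lowest bands had 0.16 and 0.17, and those above 400 reads lay between -0.01 and 0.01. The part of depth in the siRRP40 values was not tested.

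No member was called by edgeR between treatments, so the values of members named in other comparisons are given here. Of 14 such members tested, 7 had a change above 0 and 7 below. In 2 of them all siRRP40 levels lay above all siNT levels, and in 2 all lay below. How often levels lie so apart over all inserts was not counted, so this is a description only. In sequence_13044 the levels were -4.84, -3.94 and -6.84 in siNT and -2.53, -3.55 and -2.86 in siRRP40 cultures, without overlap (2.16, SE 0.73, unadjusted p = 0.00817, adjusted p = 0.432 by edgeR). In sequence_14730 they were 3.46, 2.63 and 3.15 in siNT and 4.25, 4.32 and 4.70 in siRRP40 cultures, again without overlap (1.30, SE 0.29, adjusted p = 0.195). In the other direction, sequence_06470 had 0.98, 0.78 and 1.40 in siNT and -1.44, 0.17 and 0.26 in siRRP40 cultures (-1.42, SE 0.46, unadjusted p = 0.00645, adjusted p = 0.417 by edgeR). For sequence_04515 the levels were 1.21, 1.11 and 1.03 against 0.17, 0.29 and 0.60 (-0.82, SE 0.42, adjusted p = 0.607). Neither of these overlapped between treatments. The levels of sequence_15096 overlapped between treatments, at -6.44, -2.80 and -6.05 against -5.28, -3.18 and -3.70 (1.11, SE 0.99, adjusted p = 0.818). For sequence_08053 the siNT levels of -4.70, -3.90 and -2.48 also overlapped those in siRRP40 cultures, which were -3.07, -2.61 and -2.43 (0.96, SE 0.59, adjusted p = 0.69). In sequence_05581 they overlapped as well, at 3.88, 3.83 and 4.52 against 1.60, 3.60 and 4.35 (-0.91, SE 0.50, adjusted p = 0.637). None of the 14 differences passed the threshold.

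At 14Rik, a different start site on another chromosome in cells without the reporter, members were low in total RNA too. The medians were -0.76, -1.09 and -0.91, a mean of -0.92 ± 0.16 (SD, n = 3), against 0.04 ± 0.01 for non-members. Of 422 members tested, 128 were lower and 29 higher than the typical insert (adjusted p under 0.05 by edgeR), or 30.3% and 6.87%. Over all 14755 inserts, 18.5% were lower and 24.4% higher. The median log2 fold change was -1.18 over members and -0.08 over all inserts. With library totals these were -1.90 and -0.80, and 221 members were lower and 17 higher (52.4% and 4.03%, against 32.6% and 12.1% of all inserts). The count of lower members was 51 of 428 without screen 3 (11.9%, against 6.78% of all inserts), 95 without screen 2 (21.6%, against 13.1%) and 174 without screen 1 (41.1%, against 24.2%). Within bands of gDNA reads, 33.3% of members and 22.7% of non-members were lower from 400 to 800 reads, and 30.4% and 16.7% from 800 to 1600. Below 400 reads the shares were close: 28.6% and 27.1% from 50 to 200, and 27.4% and 26.6% from 200 to 400.

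Of 225 members tested in siNT cultures and at 14Rik, 140 were lower in the former and 71 in the latter, and 51 were lower in both, which is 36.4% of the 140 and 71.8% of the 71. These shares lay near those over all 225 members, of which 31.6% were lower at 14Rik and 62.2% in siNT cultures. Over all 9264 inserts tested in both, the shared calls were 41.6% of those lower in siNT cultures and 74.0% of those lower at 14Rik, where 17.6% and 31.3% were lower in all. All 3 levels at 14Rik lay below 0 in 232 of 422 members (55.0%), against 33.6% of non-members. Over members the mean 14Rik level correlated with the mean siNT level at a Pearson r of 0.42 (240 members). Across all 11 total RNA libraries that the rule did not use, at both sites, 51 of 162 members measured in each (31.5%) lay below the typical insert throughout, against 16.0% of non-members.

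The lowest named member at 14Rik was sequence_06407, with 10, 2 and 8 RNA reads against 798, 1826 and 1448 gDNA reads. Its levels of -5.89, -9.68 and -7.79 were far below those it had in any Pou5f1 library of untreated cells, where total RNA stood between -2.06 and -1.11 and run-on RNA at -0.53 and -0.14. In siRNA-treated Pou5f1 cells the range was wider. Its siNT levels were -1.11, -2.21 and -5.52 on 44, 56 and 94 gDNA reads. Those in siRRP40 cultures were -4.47, -1.54 and -1.70 on 20, 56 and 120. The log2 fold change at 14Rik was -8.20 (SE 0.90, adjusted p = 0.000769 by edgeR). Next was sequence_10983, with 324 RNA reads in screen 1 and 0 in screens 2 and 3, against 1282, 196 and 144 gDNA reads. Its fitted fall of -7.11 (SE 2.40, adjusted p = 0.0426) depends on the prior count and was lost without screen 2 or 3 and without the screen as a block.

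The highest was sequence_04327, with 24216, 23586 and 48610 RNA reads against 3482, 1010 and 2080 gDNA reads at 14Rik. Its levels there were 2.97, 3.70 and 3.94 (3.37, SE 0.30, adjusted p = 0.0006 by edgeR), while total RNA in all 4 Pou5f1 screens stood between -1.60 and -0.42. The levels of sequence_00072 were 1.44, 4.69 and 4.16 (3.34, SE 0.66, adjusted p = 0.00562). That insert was also high in total RNA of screens 1 and 4 at Pou5f1, at 2.04 and 2.62, where its 44 gDNA reads in screen 1 kept it out of the test.

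Tested directly, the difference between 14Rik and Pou5f1 total RNA of screens 1 and 4 passed the threshold in 4 of 261 members, of which 3 were higher at 14Rik and 1 lower (interaction, adjusted p under 0.05 by edgeR), where over all 10365 inserts 0.212% were higher and 0.174% lower. The median interaction was 0.27 over members and -0.11 over all inserts. This fit shares its libraries with the fits at each site. Higher at 14Rik were sequence_04327 (3.81, SE 0.49, adjusted p = 0.0118) and sequence_08053 (3.75, SE 0.65, adjusted p = 0.0387), whose 14Rik levels were 1.39, 0.00 and 0.93 beside -2.51 and -3.38 in Pou5f1 screens 1 and 4. Lower at 14Rik was sequence_06407 (-6.28, SE 1.11, adjusted p = 0.0398). No member was called without Pou5f1 screen 1 or 4, without 14Rik screen 3 or without the screen as a block, while DESeq2 called 28 higher and 9 lower, or 10.7% and 3.45% of members, against 3.50% and 4.00% of all inserts.

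Sorted cells carrying members lay towards the low-numbered bins. The mean bin that the authors deposited as a sort score had a median of 2.51 over 434 members and 2.95 over non-members in sort screen 1, and 2.88 over 467 members and 3.09 over non-members in sort screen 2. A mean bin below 2 was held by 128 members (29.5%) in screen 1, against 16.8% of non-members, and by 86 (18.4%) in screen 2, against 13.9%. Mean bins above 5 were about as frequent in members as in others, at 7.37% against 7.78% and 8.14% against 9.08%. Members took 3.85% of the reads of bin 1 and 1.35% of bin 4 in screen 1, and 3.48% and 0.945% in screen 2, and rose again to 2.04% and 2.21% in bin 6. Over eligible inserts the deposited mean bin rose with total RNA of screen 4, with a Spearman rho of 0.51 and 0.46, a description that links low bins with low RNA in these data.

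In a fit of read share on bin number over both sort screens, 117 of 278 members tested fell towards high bins and 34 rose (adjusted p under 0.05 by edgeR), or 42.1% and 12.2%. Over all 10229 inserts, 28.1% fell and 23% rose. The 12 bin libraries come from 2 sorts, so p-values of this fit rest mostly on the spread of bins around a line within a sort. They measure little of the spread between sorts. The median log2 slope per bin was -1.08 over members and -0.33 over all inserts. With DESeq2's size factors in edgeR these were -0.69 and 0.09, with 91 members falling and 43 rising, so members differed from the median insert by -0.76 and -0.78. From 200 to 400 gDNA reads a smaller share of members fell, 28.8% of 52 against 39.7% of 746 non-members. The median slopes there were -0.98 and -1.15. In the other bands the shares were 57.1% and 32.6% from 50 to 200 reads and 47.5% and 35.7% from 400 to 800. They were 35.7% and 28.4% from 800 to 1600, and 52.9% and 20.6% from 1600. Without sort screen 1 30 of 454 members fell and 46 rose (6.61% and 10.1%), against 5.18% and 16.4% of all inserts. Without sort screen 2, 7 of 283 fell and 23 rose (2.47% and 8.13%), against 119 and 1259 of all 10462 inserts. More members rose than fell in either fit with 1 screen, and in both the share falling was higher and the share rising lower than over all inserts. Of 111 members lower in siNT total RNA and tested in both fits, 58 (52.3%) also fell over the bins, and these were 76.3% of the 76 that fell. Of the 178 members tested in both fits, 42.7% fell over the bins and 62.4% were lower in siNT cultures. Over all 7931 inserts tested in both, the shared calls were 57.4% of those lower in siNT cultures and 60.5% of those that fell over the bins, where 28.3% fell and 29.8% were lower in all.

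The steepest rises over the bins were of sequence_02533 and sequence_06470. All 502 binned reads of sequence_02533 in sort screen 1 were in bin 6, as were 4116 of 4148 in sort screen 2 (slope 5.06, SE 0.63, adjusted p = 8.64e-08 by edgeR). Bin 6 also held 710 of 752 and 3058 of 3116 reads of sequence_06470 (slope 4.69, SE 0.64, adjusted p = 4.09e-07). Total RNA levels in screens 1 and 4 were -0.29 and 0.81 for the former and 2.45 and 2.91 for the latter. Among falling members, sequence_10460 had 94, 92 and 30 reads in bins 1, 2 and 3 of sort screen 1 and 406, 166 and 38 in those of sort screen 2, with 0 in bins 4 to 6 of both (slope -3.07, SE 0.61, adjusted p = 7.01e-05). The reads of sequence_08812 likewise lay in bins 1 to 3 but for 2 of 1086 in sort screen 2 (slope -3.0, SE 0.56, adjusted p = 3.39e-05). Both falls lost their call without sort screen 2 (adjusted p = 0.109 and 0.0906). Total RNA of these inserts in screens 1 and 4 was below the typical insert, at -1.07 and -0.33 for sequence_10460 and -1.30 and -0.52 for sequence_08812. In siNT cultures the levels were -1.07, 1.60 and -0.38 for sequence_10460 and -1.77, -1.68 and -2.13 for sequence_08812.

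Membership was not even along the insert numbers, whose meaning the labels do not give. Members were 1.69% of eligible inserts numbered 1 to 4000, 3.49% from 4001 to 8000, 5.89% from 8001 to 12000 and 9.15% from 12001 to 14000, and then 2.57%, 4.87% and 1.43% in the blocks 14001 to 15000, 15001 to 16000 and above. These blocks were chosen after the values had been seen. From 12001 to 14000, 60.35% of inserts had a spliced reference and could not be chosen, and 656 were eligible. In the other blocks 5.21% to 10.55% had a spliced reference. Total RNA moved with the number among all inserts: non-members had a median siNT level of 1.40 from 1 to 4000, 0.16 from 4001 to 8000, -1.14 from 8001 to 12000 and -1.19 from 12001 to 14000. Members were lower than non-members in each of these blocks, at -0.01, -1.19, -1.66 and -1.90. At 14Rik, members had 0.61, -0.85, -1.40 and -0.70 and non-members 1.09, 0.01, -1.04 and -0.75, so members were not lower there from 12001 to 14000. Run-on levels differed less, at 0.22, -0.13, -0.18 and -0.16 for members and 0.41, 0.02, -0.48 and -0.47 for non-members. What the blocks stand for, and its part in the contrast of members with other inserts, was not tested.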

How the data were processed

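Read counts per insert were used from 46 of 58 samples: 17 RNA, 14 gDNA, 12 sorted-bin and 3 unsorted libraries. The remaining 12, without insert libraries, were not analysed here. Per the submitters' processing notes, the authors used cutadapt 1.14 and Bowtie2 2.3.4.3. The deposited counts are the authors' numbers of reads per unspliced or spliced reference, and all are even. The choice of spliced references is not described by the labels. Between 45.7% and 56.7% of a library's reads had no reference and were left out of totals. The sort score deposited for an insert is its mean bin as the authors computed it. Its table carries no insert names and was read in the order of the count files; the score correlated with a mean bin computed from the counts at r = 0.99 and 1.00. No other column of the deposited tables (42 in all) was used.

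Members were found with levels as defined in the report; the members, lists and comparisons were chosen with earlier results of these data known. RNA is the sum of unspliced and spliced counts. Tests used edgeR 4.0.16 (quasi-likelihood, TMM) in R 4.3.3 blocked by screen or culture. Inserts needed 50 reads in each gDNA library of the fit (in sort-seq, 50 in each unsorted library and 100 summed over a screen's bins), and p-values were adjusted by Benjamini-Hochberg over all inserts. Total and run-on RNA at Pou5f1 shared 1 fit of screens 1, 4 and 5. DESeq2 1.42.0, other scalings, no read filter, no block and leaving out each replicate were alternatives. The scripts were tested on simulated counts. SEs are the log2 fold change over the square root of F. For each comparison, the named inserts are at most the 2 members per direction with the largest change among those past the threshold with a mean of 200 gDNA (sort: unsorted) reads.

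Labels match each gDNA library to its RNA library. Deviations from group means correlated between matched libraries at 0.24 to 0.50 at Pou5f1, 0.04 to 0.30 at 14Rik, 0.31 to 0.33 for siNT, and for siRRP40 at 0.34 to 0.38, over 7593 inserts, and between unmatched ones at up to 0.08.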

Additional observations from a re-analysis of the deposited data

Results flagged for a closer look

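Of the members whose difference between sites passed the threshold, 3 were named under the limits given above: sequence_04327 (3.81 higher at 14Rik than at Pou5f1, log2), sequence_08053 (3.75) and sequence_06407 (-6.28). All 3 calls were lost when Pou5f1 screen 1, Pou5f1 screen 4 or 14Rik screen 3 was left out (adjusted p from 0.0905 to 0.244, edgeR quasi-likelihood test), each with the same sign.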

How the results depend on the processing

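The number of members was 256 with a difference of at least 1.5, 867 with no minimum of chromatin RNA, and 1273 or 1318 with 1 of the 2 screens left out. The counts below are of members higher and lower. Shares in brackets are of the members tested, against those of all inserts tested. With library totals they were 1 higher for run-on RNA (0.348%, against 1.01%). For total RNA in screens 1 and 4 they were 1 and 128 (0.348% and 44.6%, against 8.30% and 23.4%). They were 1 higher for total against run-on RNA (0.348%, against 1.86%) and 17 and 221 at 14Rik (4.03% and 52.4%, against 12.1% and 32.6%). Between sites 5 were higher (1.92%, against 0.251%), and in siNT cultures 6 were (2.44%, against 18.4%). DESeq2 gave 9 and 19 for run-on RNA (3.14% and 6.62%, against 6.15% and 7.70%) and 98 lower for total RNA (34.1%, against 17.9%). It gave 4 and 57 for total against run-on RNA (1.39% and 19.9%, against 11.3% and 5.23%). At 14Rik it gave 199 lower (47.2%, against 27.5%), and between sites 28 and 9 (10.7% and 3.45%, against 3.50% and 4.00%). It gave 3 higher for siRRP40 (1.22%, against 0.326%) and 61 rising over the bins (21.9%, against 39.3%). With no read filter, 5 were higher in run-on RNA (1.08%, against 2.40%) and 1 in total against run-on RNA (0.216%, against 2.89%). In that setting 0 were lower between sites (0%, against 0.140%) and 74 rose over the bins (16.0%, against 25.2%). With a gDNA minimum of 200 reads for membership, 3 of 244 were lower in run-on RNA, against 1.29% of all inserts. Without the replicate block the counts were 0 and 2 for run-on RNA (0% and 0.697%, against 0.265% and 0.238%). They were 1 and 41 for total RNA (0.348% and 14.3%, against 11.1% and 6.75%). For total against run-on RNA they were 1 and 4 (0.348% and 1.39%, against 1.74% and 0.366%). Between sites they were 0 and 0 (0% and 0%, against 0.0675% and 0.0193%). The other counts of calls stayed within 1.5 times, but their shares moved where the number tested did. With no read filter, 78 of 462 members fell over the bins (16.9%, against 13.1%). In that setting 61 of 463 were lower in total RNA of screens 1 and 4 (13.2%, against 7.28%). In siNT cultures 208 of 399 were lower (52.1%, against 29.3%).

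With 1 replicate left out, the counts ranged from 4 to 5 higher and 3 to 23 lower for run-on RNA, 13 to 106 lower for total RNA, 1 to 3 and 8 to 32 for total against run-on RNA, 15 to 29 and 51 to 174 at 14Rik, 0 to 9 and 0 to 1 between sites, and 23 to 46 rising and 7 to 30 falling over the bins. The number of members tested moved too, so these ranges mix totals. It was 461 without Pou5f1 screen 1 and 288 without screen 5, and 454 and 283 without sort screen 1 or 2. Pou5f1 screen 4 could not be left out of its fit, since no residual degrees of freedom remained. For the named members, 180 of 218 alternatives kept the call and 38 lost it, and 0 reversed the direction. Only 11 of the 27 named results kept their call in every alternative. The cause of these changes was not tested. Depth limits single members: there were 1 to 3 libraries of a kind, with a median of 360 to 416 gDNA reads over members.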
